A study of Homo sapiens with 9 samples.

Results

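The netrin and Slit guidance systems were examined as 10 genes taken by name from the 58735 in the deposited table, namely the netrin ligands NTN1 and NTN4, the netrin receptors UNC5B, UNC5C, NEO1 and DCC, the Slit ligands SLIT2 and SLIT3, and the Slit receptors ROBO1 and ROBO2. RNA was sequenced from GBM43, a patient-derived human glioblastoma cell line grown in DMEM with serum and seeded into gels of hyaluronic acid from which cells invade the surrounding material. Core libraries (n = 3) came from control-device cells that had stayed in the centre, and invasive libraries (n = 3) from control-device cells that had left it, the fractions being parted with a scalpel. MK801 libraries (n = 3) came from devices given 50 µM MK801, which blocks the channel of NMDA-type glutamate receptors, and held core and invasive cells together because few had invaded. The labels describe what control devices received both as culture medium and as DMSO vehicle. All groups share the same line, and the labels do not say whether the 3 libraries of a group stem from separate cultures; p-values therefore measure no more than how these libraries scatter, which can be technical.

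Netrins are secreted relatives of laminin that attract or repel growing axons and migrating cells. DCC and its close relative neogenin, encoded by NEO1, mediate attraction, whereas UNC5 receptors, alone or with DCC, mediate repulsion. UNC5B and DCC are also dependence receptors, which can trigger cell death when no netrin is bound. Slits are large secreted proteins with leucine-rich repeats that bind Robo receptors, usually as repellents, with heparan sulfate proteoglycans as co-receptors. In the brain both systems steer axons and neuronal precursors, and both have been studied for their part in the movement of glioma cells.

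The members were chosen by name with earlier results of these same libraries known, in which the FPKM values had put UNC5B among the named genes that were higher in invasive cells. Their levels and differences are therefore descriptions and carry no test. Levels are FPKM, fragments per kilobase of gene length and of sequencing depth, as deposited, and can be compared between genes. Differences are between group means of log2(FPKM + 1), which understates those of weakly expressed genes, with the standard error (SE) from a limma model of all 9 libraries. A gene entered that model at 1 FPKM or more in at least 3 libraries. Of the 10 members 4 did so, UNC5B, NEO1 and ROBO1 with all 9 libraries at that level and SLIT2 with 5, of which 3 were invasive.

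The libraries held 15584610 to 54409666 fragments assigned to genes. They differed in ways that touch each comparison below. At equal depth core libraries detected 20322 to 21414 genes, invasive libraries 15975 to 19140, and MK801 libraries 15161, 19031 and 21517 for replicates 1, 2 and 3. Averaged over fragments, transcript GC content ran from 49.8 to 51.1% for core and from 52.7 to 54.4% for invasive libraries, and it was 54.2, 53.1 and 50.5% for the MK801 replicates. Each difference is therefore also given with every library's trend over gene GC content removed. Of 11 glioma and neural markers only VIM, CD44, EGFR and SOX2 reached 1 FPKM, and they did so in all libraries (SOX2 1.39 to 3.26 FPKM). OLIG2 and CHI3L1 were at 0 throughout. GFAP reached at most 0.234 FPKM, and NES, S100B, PTPRZ1 and FABP7 at most 0.510 FPKM. The 6 immune markers stayed under 1 FPKM in every library.

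Of the members whose levels the results turn on, SLIT2, NEO1 and ROBO1 have promoter sequences in the reference, shown here so that members with different orders of groups can be read side by side. The 250 bases before each RefSeq transcription start are given 5′ to 3′ on the strand of the gene (RefSeq, GRCh38.p14), with capitals marking the GC box GGGCGG on either strand. ROBO1 has annotated starts at both an upstream and an inner position, which levels per gene cannot tell apart. The windows lie at chr4:20251655-20251904 (plus strand) for SLIT2, chr15:73051652-73051901 (plus strand) for NEO1, and chr3:79767999-79768248 and chr3:79019460-79019709 (minus strand) for ROBO1.
SLIT2: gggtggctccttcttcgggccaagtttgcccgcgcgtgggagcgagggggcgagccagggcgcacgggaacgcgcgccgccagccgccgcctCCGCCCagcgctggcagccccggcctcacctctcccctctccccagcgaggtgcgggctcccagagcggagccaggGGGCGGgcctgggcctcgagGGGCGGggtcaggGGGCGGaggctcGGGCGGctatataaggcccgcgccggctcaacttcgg
NEO1: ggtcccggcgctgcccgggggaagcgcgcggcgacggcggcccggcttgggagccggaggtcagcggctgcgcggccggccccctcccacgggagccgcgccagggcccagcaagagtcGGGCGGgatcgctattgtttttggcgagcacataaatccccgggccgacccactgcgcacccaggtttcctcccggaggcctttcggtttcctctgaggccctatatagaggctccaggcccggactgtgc
ROBO1 upstream: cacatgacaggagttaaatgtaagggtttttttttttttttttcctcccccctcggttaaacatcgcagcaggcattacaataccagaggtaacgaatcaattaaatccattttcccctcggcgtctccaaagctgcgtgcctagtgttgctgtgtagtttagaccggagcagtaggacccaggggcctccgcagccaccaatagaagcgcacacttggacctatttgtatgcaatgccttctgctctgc
ROBO1 inner: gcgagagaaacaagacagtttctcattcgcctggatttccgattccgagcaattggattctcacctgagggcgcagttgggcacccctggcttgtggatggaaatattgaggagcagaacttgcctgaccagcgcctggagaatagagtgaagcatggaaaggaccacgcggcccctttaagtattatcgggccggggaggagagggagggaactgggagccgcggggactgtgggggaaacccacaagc
The SLIT2 window was 77.2% G and C, the NEO1 window 71.6%, and the ROBO1 windows 48.0 and 56.8%, against a median of 58.0% over 35116 promoters. SLIT2 held 5 GC boxes, NEO1 1 and ROBO1 0, and 42.6% of all promoters held at least 1. None of TATAAA (10.7% of promoters), GGAATG, the TEAD motif (11.9%), or TGANTCA, the AP-1 motif (6.57%), was found on either strand of these windows. Nor was ACGTG, a form of the hypoxia element core (18.5%). Only these letters were searched, and other forms of the motifs were not. The SLIT2 window, for example, holds TATATAA and GCGTG. Over their transcripts GC content was 59.7% for UNC5B, 48.7% for NEO1, 46.7% for ROBO1 and 45.4% for SLIT2.

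UNC5B (ENSG00000107731, chromosome 10, 71212570 to 71302864, plus strand, coordinates of the genes as deposited on GRCh38), a repulsive netrin receptor, was the member with the widest range of levels. Its core libraries were at 3.00, 1.67 and 1.95 FPKM, its invasive libraries at 14.2, 16.0 and 8.96 FPKM, and its MK801 libraries at 8.44, 5.12 and 2.66 FPKM. Every invasive library was above every core and every MK801 library, whereas the lowest MK801 library, replicate 3, lay within the core range. The group means were 2.21 ± 0.701, 13.0 ± 3.65 and 5.41 ± 2.90 FPKM (SD, n = 3), so the invasive mean was 5.91-fold the core mean and 2.41-fold the MK801 mean. In rank, UNC5B stood above 58.0% of protein-coding genes by core mean, 84.3% by invasive mean and 72.2% by MK801 mean. The invasive minus core difference was 2.12 (SE 0.35), and 1.45 (SE 0.20) with the GC trend removed. It lay between 1.96 and 2.35 when any 1 library was left out. The MK801 minus invasive difference was -1.20 (SE 0.35), and -1.05 (SE 0.20) with the GC trend removed. The MK801 minus core difference of 0.92 (SE 0.35) ranged from 0.40 with the GC trend removed and 0.58 without MK801 replicate 1, which had the fewest genes detected, to 1.27 without MK801 replicate 3, which had the most. Whether counting used strand is not given in the sources used here; the antisense gene UNC5B-AS1 was at 0 in 8 libraries and at 0.0653 FPKM in MK801 replicate 3.

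**Figure D1:**
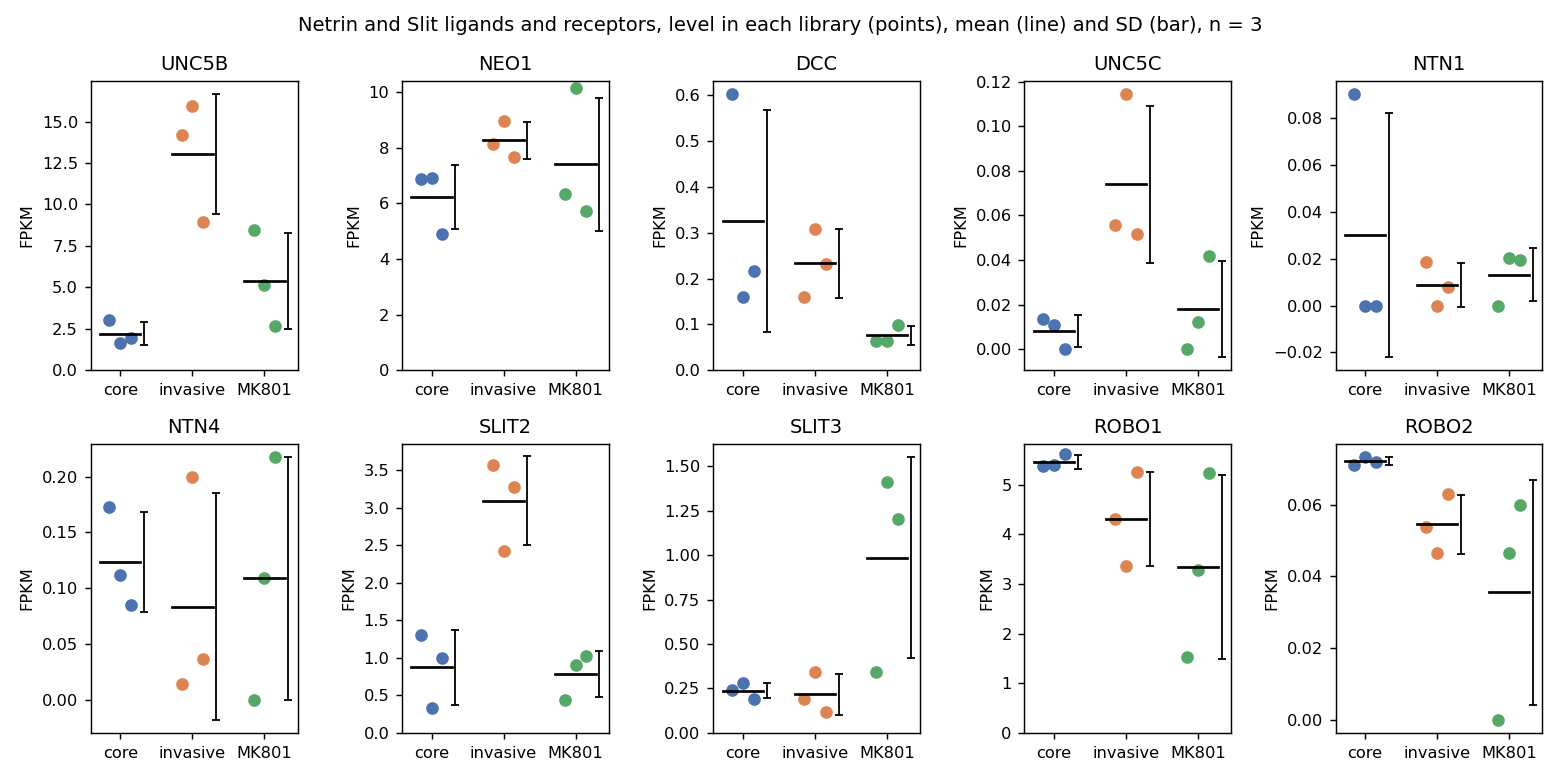
FPKM (vertical axis, linear and scaled per gene) of each of the 10 members in the 9 libraries, with points for libraries in replicate order, a line for the group mean and a bar for the SD (n = 3). UNC5B and SLIT2 were highest in all 3 invasive libraries, SLIT3 was highest in MK801 replicates 2 and 3, and NTN1, NTN4, UNC5C and ROBO2 reached at most 0.218 FPKM.

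NEO1 (ENSG00000067141, chromosome 15, 73051710 to 73305206, plus strand), which encodes neogenin, a receptor for netrins and for repulsive guidance molecules, was the most evenly expressed netrin receptor. Core libraries were at 6.88, 6.90 and 4.89 FPKM, invasive libraries at 8.15, 8.97 and 7.68 FPKM, and MK801 libraries at 6.35, 10.1 and 5.73 FPKM. The invasive libraries were all above the core libraries, and the MK801 libraries spanned both. The invasive mean was 1.33-fold the core mean, a difference of 0.37 (SE 0.24) and of 0.42 (SE 0.21) with the GC trend removed. It was 0.23 without core replicate 3, and 0.10 with limma-voom on recovered fragments, a scale on which the median of all tested genes was -0.36. The MK801 minus core difference of 0.20 (SE 0.24) was 0.19 (SE 0.21) with the GC trend removed. It was -0.03 without MK801 replicate 2 and 0.34 without MK801 replicate 3.

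Set beside each other in the same library, UNC5B and NEO1 stood in a different order in core and invasive cells. These ratios and shares are of FPKM as deposited, and the GC trend bears on them, since its removal took the invasive minus core differences from 2.12 and 0.37 to 1.45 and 0.42. The ratio of UNC5B to NEO1 FPKM was 0.436, 0.242 and 0.399 in core, 1.74, 1.78 and 1.17 in invasive, and 1.33, 0.505 and 0.464 in MK801 libraries. UNC5B thus made up 25.1 ± 5.24% of the summed FPKM of the 4 netrin receptors in core libraries, 59.6 ± 5.79% in invasive libraries and 40.5 ± 14.2% with MK801. MK801 replicate 1, at 56.8%, fell among the invasive libraries (52.9 to 63.0%), and the other MK801 libraries, at 33.4 and 31.2%, lay just above the core libraries (19.1 to 28.6%). The summed FPKM of the 4 receptors was 8.76 ± 1.72 for core, 21.6 ± 4.30 for invasive and 12.9 ± 3.80 for MK801 libraries.

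DCC (ENSG00000187323, chromosome 18, 52340172 to 53535903, plus strand), the receptor best known for netrin attraction, was weakly expressed. It was at 0.603, 0.159 and 0.216 FPKM in core, 0.159, 0.308 and 0.232 FPKM in invasive, and 0.0644, 0.0640 and 0.0993 FPKM in MK801 libraries. All MK801 libraries were below all control libraries, while core and invasive libraries overlapped. These values rest on 12 to 221 fragments per library. UNC5C (ENSG00000182168, chromosome 4, 95162504 to 95549206, minus strand), another repulsive receptor, was near the limit of detection, with 4, 2 and 0 fragments for the core, 10, 22 and 11 for the invasive, and 0, 2 and 29 for the MK801 replicates, the last being the deepest library. In FPKM the invasive libraries of UNC5C were at 0.0559, 0.114 and 0.0516 and no other library exceeded 0.0417, so the invasive libraries were highest for UNC5C as for UNC5B, while the MK801 replicates ran in the opposite order.

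The netrin ligands were scarce in all groups. NTN1 (ENSG00000065320, chromosome 17, 9021542 to 9244000, plus strand), the classical ligand of these receptors, had 29 fragments in all 9 libraries together, of which 16 were in core replicate 1, and was at 0 in 4 libraries. A count of 0 allows up to 3 fragments, here up to 0.0332 FPKM in the library where that limit is highest, for counting error alone. NTN4 (ENSG00000074527, chromosome 12, 95657807 to 95791152, minus strand), a netrin of basement membranes, was at 0.173, 0.112 and 0.0852 FPKM in core, 0.0143, 0.200 and 0.0361 FPKM in invasive, and 0, 0.109 and 0.218 FPKM in MK801 libraries, and the groups overlapped. The summed FPKM of the 4 receptors was 40.0 to 82.8 times that of NTN1 and NTN4 in core libraries and 127 to 683 times in invasive libraries. It was 119 and 36.0 times in MK801 replicates 2 and 3 and has no value in replicate 1, which had no ligand fragment, and all these are ratios that rest on few ligand fragments. Whether serum or the gel supplied netrin protein was not measured.

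**Figure D2:**
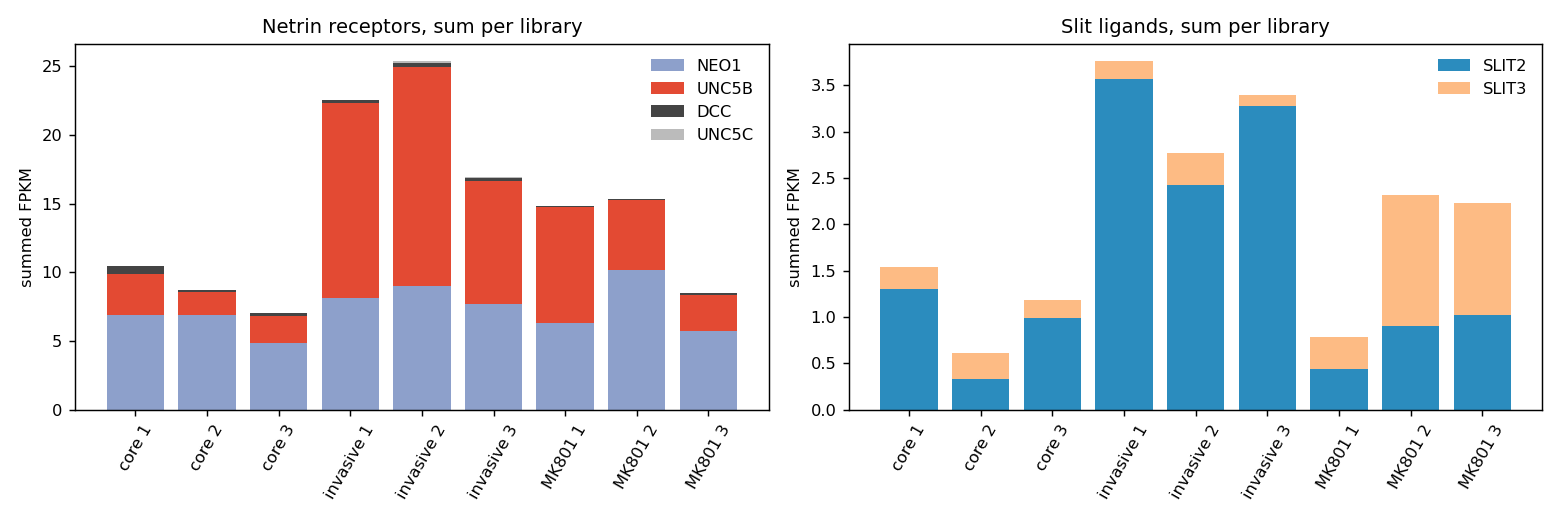
Summed FPKM per library (bars from 0) of the 4 netrin receptors, left, and of the Slit ligands SLIT2 and SLIT3, right, split by gene. The UNC5B part was larger than the NEO1 part in the 3 invasive libraries and MK801 replicate 1, and the SLIT3 part was larger than the SLIT2 part in MK801 replicates 2 and 3.

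SLIT2 (ENSG00000145147, chromosome 4, 20253260 to 20620561, plus strand), a repellent for cells that carry Robo receptors, was higher in invasive than in all other libraries. Core libraries were at 1.31, 0.330 and 0.991 FPKM, invasive libraries at 3.57, 2.43 and 3.28 FPKM, and MK801 libraries at 0.444, 0.9004 and 1.02 FPKM. The lowest invasive library was thus above the highest library of either other group, and core and MK801 libraries overlapped. The invasive mean of 3.09 ± 0.593 FPKM was 3.53-fold the core mean and 3.91-fold the MK801 mean. The invasive minus core difference was 1.15 (SE 0.26), and 1.48 (SE 0.22) with the GC trend removed. The MK801 minus invasive difference was -1.20 (SE 0.26), and -1.27 (SE 0.22) with the GC trend removed. With a pseudocount of 0.1 in place of 1 these differences were 1.86 and -1.89. The removal of the GC trend thus lowered the invasive minus core difference of the GC-rich UNC5B and raised that of the GC-poor SLIT2, to nearly the same size. MK801 and core did not part for SLIT2, at -0.05 (SE 0.26), and the sign of that difference varied with the processing.

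SLIT3 (ENSG00000184347, chromosome 5, 168661733 to 169301129, minus strand), a second Slit with the same receptors, had another order of groups. Core libraries were at 0.239, 0.282 and 0.193 FPKM, invasive libraries at 0.193, 0.343 and 0.116 FPKM, and MK801 libraries at 0.342, 1.41 and 1.20 FPKM. MK801 replicates 2 and 3 were above all other libraries, with 311 and 1116 fragments, whereas MK801 replicate 1 was level with the highest invasive library. The MK801 mean of 0.986 ± 0.568 FPKM was 4.14-fold the core mean and 4.54-fold the invasive mean. SLIT3 reached 1 FPKM in 2 libraries only and so was not fitted. Within the Slit pair, SLIT2 made up 74.0 ± 17.4% of the summed FPKM in core libraries, 93.0 ± 4.76% in invasive libraries and 47.1 ± 8.84% with MK801. The invasive shares, 87.6 to 96.6%, did not overlap with the MK801 shares, 38.9 to 56.5%.

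ROBO1 (ENSG00000169855, chromosome 3, 78597240 to 79767815, minus strand), the main Slit receptor measured here among the members, was highest and most even in core libraries. Core libraries were at 5.37, 5.39 and 5.62 FPKM, invasive libraries at 4.31, 3.36 and 5.25 FPKM, and MK801 libraries at 1.52, 3.28 and 5.23 FPKM. All core libraries were above all others, by little for invasive replicate 3 and MK801 replicate 3. The invasive minus core difference was -0.30 (SE 0.30), and -0.06 (SE 0.22) with the GC trend removed. It was -0.71 with limma-voom, -0.43 without invasive replicate 3 and -0.17 without invasive replicate 2. Adjusted for how many genes each library detected, it was 0.27, the opposite sign. The MK801 minus core difference was -0.67 (SE 0.30), -0.51 (SE 0.22) with the GC trend removed, -0.32 without MK801 replicate 1 and -0.98 without MK801 replicate 3. Across MK801 libraries ROBO1 was lowest in the library with the fewest genes detected and the highest GC content, and highest in the library with the most genes detected and the lowest GC content. The part of library quality in its level was not tested.

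ROBO2 (ENSG00000185008, chromosome 3, 75906695 to 77649964, plus strand), a Robo receptor of neurons, stayed between 0 and 0.0734 FPKM, with 208 fragments in all 9 libraries. Core libraries, at 0.0712 to 0.0734 FPKM, were above invasive libraries, at 0.0467 to 0.0631 FPKM, and above MK801 libraries, at 0 to 0.0600 FPKM. ROBO1 made up at least 98.6% of the summed ROBO1 and ROBO2 FPKM in every library. The ratio of summed Slit to summed Robo FPKM over these members was 0.284, 0.112 and 0.208 in core, 0.862, 0.812 and 0.639 in invasive, and 0.517, 0.695 and 0.421 for the MK801 replicates. Core libraries therefore had the lowest ratios, and the ratios of the other groups overlapped, with SLIT2 supplying most of the Slit level in the invasive libraries and SLIT3 more than SLIT2 in MK801 replicates 2 and 3.

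By mean level the members ran, in core, from NEO1 (6.22 FPKM) and ROBO1 (5.46) to UNC5B (2.21) and SLIT2 (0.876), and then DCC (0.326), SLIT3 (0.238), NTN4 (0.123), ROBO2 (0.0722), NTN1 (0.0300) and UNC5C (0.00812). NEO1 and ROBO1 were within their spread of each other there, as were DCC and SLIT3. In invasive libraries UNC5B (13.0 FPKM) came ahead of NEO1 (8.27), ROBO1 (4.30) and SLIT2 (3.09). UNC5B and NEO1 overlapped there only in that UNC5B in replicate 3 (8.96 FPKM) lay just under NEO1 in replicate 2 (8.97 FPKM), and ROBO1 and SLIT2 overlapped too. In MK801 libraries NEO1 (7.41 FPKM), UNC5B (5.41) and ROBO1 (3.34) overlapped with their neighbours in this order, and SLIT3 (0.986) and SLIT2 (0.790) overlapped too.

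The comparison of invasive with core libraries asked what sets cells that had invaded apart. Libraries of the 2 fractions did not overlap for 6 of the 10 members, 4 higher in invasive (UNC5B, UNC5C, NEO1 and SLIT2) and 2 lower (ROBO1 and ROBO2). Of the 4 fitted members all 4 did not overlap, beside 64.8% of all 11845 genes tested (32% higher and 32.8% lower); the other members lie below the filter and have no such background. Limma on all 9 libraries called none of the 4 fitted members at an adjusted p under 0.05, and 0% of all genes, while before adjustment 2 members (UNC5B and SLIT2) and 4461 genes had p under 0.05. Limma-voom on recovered fragments called 0. In the fit of the 6 control libraries alone UNC5B and SLIT2 were past the threshold, both higher in invasive libraries, beside 52.2% of all genes tested (26.3% higher, 25.9% lower), and with the GC trend removed UNC5B and SLIT2 were again, beside 17.2%. These counts carry no support, since the members were chosen with this comparison known.

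The comparisons with MK801 asked how blocked devices differed from either fraction of control devices. Compared with core, MK801 libraries did not overlap for 4 members, SLIT3 higher and DCC, ROBO1 and ROBO2 lower, of which 1 of the 4 fitted members (ROBO1), beside 18.7% of all genes tested (9.89% higher, 8.82% lower). Compared with invasive, 4 members did not overlap and all were lower in MK801 libraries (UNC5B, UNC5C, DCC and SLIT2), of which 2 of the 4 fitted members (UNC5B and SLIT2), beside 10.8% of all genes tested (5.22% higher, 5.63% lower). The comparisons share libraries and are not independent of each other. Limma on 9 libraries called no fitted member in either comparison, and 0% of all genes in each, while before adjustment 1 and 2 members, and 2509 and 978 genes, had p under 0.05. With the GC trend removed, UNC5B and SLIT2 were past the threshold in MK801 versus invasive, beside 0.616% of all genes tested. Adjusted for genes detected, both were past it again, beside 323 of all 11845 genes. Neither was when the fit with the GC trend removed held only the 6 libraries compared (0.0338% of genes). These calls carry no support. UNC5B was chosen with its high invasive values known, and SLIT2 entered the fit mainly through its invasive libraries. Since MK801 libraries pool cells that control devices gave separately, a lower share of invaded cells and lower RNA per cell cannot be told apart in them.

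**Figure D3:**
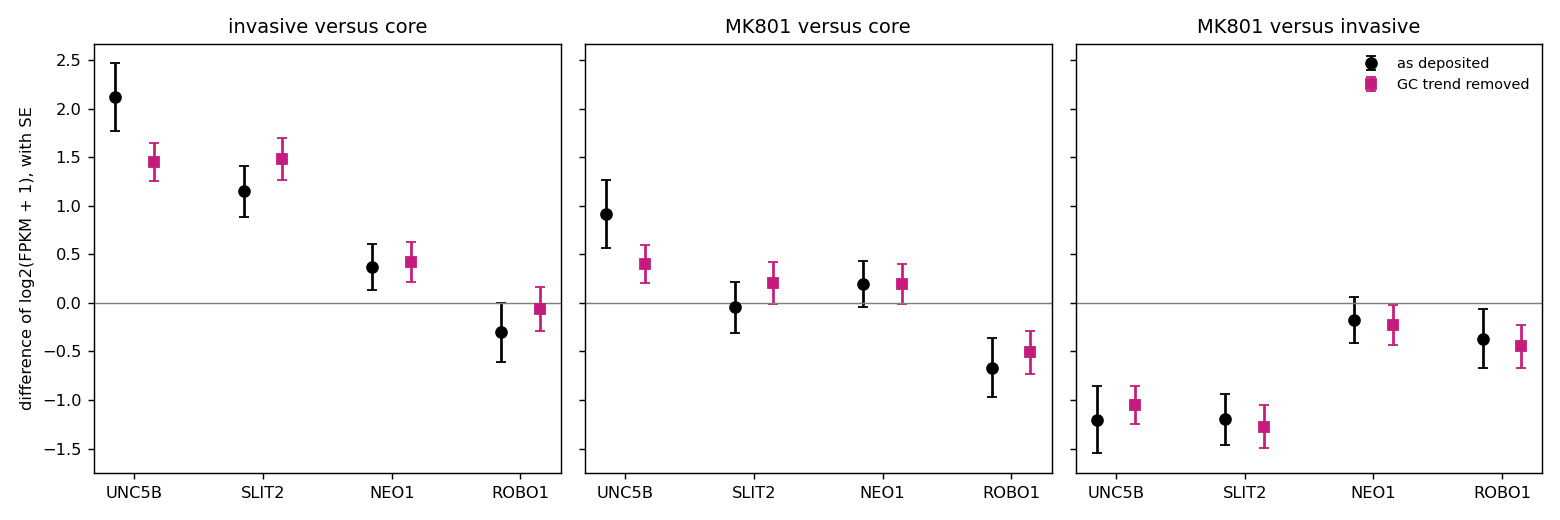
Differences of log2(FPKM + 1) between groups (points, with SE) for the 4 fitted members in the 3 comparisons, as deposited and with each library's GC trend removed. UNC5B and SLIT2 stood at 2.12 and 1.15 in invasive versus core and at 1.45 and 1.48 with the trend removed, and ROBO1 moved from -0.30 to -0.06.

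Genes that followed the members most closely over the 9 libraries were named by the highest Pearson r of log2(FPKM + 1) among protein-coding genes averaging 5 FPKM or more over all libraries, as a description over libraries that share group, depth and base composition. For UNC5B they were C4orf48 (r = 0.989), SV2A, a synaptic vesicle protein (0.989), and PDGFRB, a growth factor receptor of mesenchymal cells (0.988), and 590 of 5892 genes reached 0.9. For ROBO1 they were PPFIBP1 (0.988), SEPT11, a septin (0.986), and EXTL2 (0.986), with 269 genes at 0.9 or more. SLIT2 and NEO1 had few such genes, 10 and 11. SLIT2 was closest to CTSZ, a cathepsin (0.953), NR2F1, a nuclear receptor (0.919), and RHBDF1 (0.919), and NEO1 to PTPRF (0.962) and PTPRS (0.940), both receptor phosphatases, and STAT3 (0.941). Among the 4 fitted members, r was 0.695 for UNC5B with SLIT2, 0.607 for UNC5B with NEO1 and -0.512 for UNC5B with ROBO1.

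Markers of other cell types that moved with UNC5B are given with it. The summed FPKM of the fibroblast and pericyte markers (10 symbols, 11 table entries) ran from 80.4 to 155 for core, from 362 to 638 for invasive and from 90.1 to 208 for MK801 libraries, and COL1A1, COL1A2 and PDGFRB made up most of it. Of these entries 5 reached 1 FPKM in some core library, 8 in some invasive library and 6 in some MK801 library, and none was at 0 throughout a group. RGS5, a pericyte marker, ran the other way, at 0.385 to 0.589 FPKM in core and 0.0570 to 0.166 FPKM in invasive libraries for its higher entry. DCN and LUM, defining genes of fibroblasts, reached at most 0.827 and 1.71 FPKM. DCN and FAP overlapped between the fractions. LUM was at 0.542 to 0.944 FPKM in core and 1.20 to 1.71 FPKM in invasive libraries. COL3A1 was at 0.308 to 0.612 FPKM in core and 1.59 to 3.75 FPKM in invasive libraries. ACTA2 was at 0.352 to 0.809 and 1.73 to 3.34 FPKM in that order, and CSPG4 at 7.17 to 8.43 and 9.73 to 16.7 FPKM. The summed FPKM of 8 endothelial markers, which matter here because UNC5B and ROBO4 are also vascular receptors, ran from 11.0 to 13.7 for core, from 17.8 to 38.3 for invasive and from 10.3 to 24.0 for MK801 libraries. TIE1 and ROBO4 held most of it, while VWF, CLDN5 and EGFL7, which define endothelial cells, reached at most 0.131 FPKM (CLDN5 was at 0 in all invasive and MK801 libraries, VWF in all MK801 libraries), and CDH5, a cadherin of endothelium, was at 0.758 to 3.15 FPKM in invasive and at most 0.0729 FPKM in core libraries. The remaining endothelial markers, PECAM1 and KDR, overlapped between the fractions. PECAM1 was at 0.758 to 1.14 FPKM in core and 0.754 to 1.32 FPKM in invasive libraries. KDR was at 0.264 to 0.568 FPKM in core and 0.145 to 0.719 FPKM in invasive libraries. The part of such cells or genes in the UNC5B and SLIT2 levels was not tested.

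Around the members, 54 further genes of netrin and Slit signalling in 5 lists are described, of which 36 entered the fit. Limma on 9 libraries called none of these 36 in any comparison. Before adjustment, 16, 6 and 4 had p under 0.05 in invasive versus core, MK801 versus core and MK801 versus invasive. Of all 11845 genes tested, 4461, 2509 and 978 did so in the same order. Their median difference between invasive and core libraries was 0.03, against -0.02 over all genes tested, and 0.0034 with the GC trend removed. In the 6 control libraries alone 14 of the 36 were higher and 10 lower past the threshold, or 66.7%, beside 52.2% of all genes. With the GC trend removed, 2 were higher and 4 lower, or 16.7%, beside 17.2%. In both comparisons with MK801 0 passed when the 6 libraries compared were fitted alone, as did 0% of all genes.

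In the list of netrin ligands and relatives 3 of 10 genes were tested, and these were also the most abundant. RGMB, a neogenin ligand, had mean FPKM of 5.47 ± 0.243 for core, 5.43 ± 0.352 for invasive and 6.13 ± 0.852 for MK801 libraries, and was the only measured ligand of the list above 4 FPKM on average in any group. NTNG2 and NTNG1, membrane-anchored netrin-G proteins that do not bind DCC or UNC5 receptors, were at 1.45 ± 0.504, 3.91 ± 0.272 and 2.66 ± 1.08 FPKM and at 1.03 ± 0.512, 1.01 ± 0.316 and 0.498 ± 0.181 FPKM in the same order. NTNG2 was higher in invasive than core libraries in the 6-library limma fit (1.02, adjusted p = 0.0043), and its difference was 0.29 with the GC trend removed. SLIT1, the remaining Slit, averaged at most 0.0240 FPKM in any group.

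Among other receptors, UNC5A was at 0 in all groups and UNC5D and DSCAM averaged at most 0.0208 FPKM in any group. MCAM, an adhesion molecule that also binds netrin-1, was at 10.0 ± 0.262, 17.0 ± 2.37 and 14.1 ± 4.56 FPKM, CDON at 1.73 ± 0.425, 1.40 ± 0.147 and 1.44 ± 0.556 FPKM, and BOC at 0.819 ± 0.273, 1.87 ± 0.133 and 1.02 ± 0.183 FPKM in core, invasive and MK801 libraries. The shares and ratios over the netrin receptors among the members leave out MCAM, whose mean was above that of UNC5B in each group. In the 6-library limma fit MCAM (0.70, adjusted p = 0.0072) and BOC (0.67, adjusted p = 0.016) were higher in invasive than in core libraries. With the GC trend removed the differences of MCAM and BOC were 0.05 and 0.12. ROBO3, a divergent Robo, was at 4.26 ± 0.103, 7.51 ± 1.59 and 5.64 ± 1.57 FPKM and ROBO4, the vascular Robo, at 4.82 ± 0.343, 7.38 ± 1.77 and 8.15 ± 4.25 FPKM in the same order. Their means were below that of ROBO1 in core (5.46 FPKM) and above it in invasive (4.30) and MK801 (3.34) libraries. The Slit to Robo ratios over the members therefore leave out much of the summed level of Robo genes. Whether ROBO3 and ROBO4 act as Slit receptors in these cells was not measured. The invasive minus core differences of ROBO3 and ROBO4 were 0.68 and 0.51, and -0.04 and -0.16 with the GC trend removed. ROBO3 and ROBO4 were chosen for mention after their values were seen.

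Of the heparan sulfate and matrix co-receptors the most abundant were SDC4, DAG1 and SDC3. SDC4, a syndecan, had mean FPKM of 133 ± 9.40 for core, 135 ± 15.3 for invasive and 189 ± 30.4 for MK801 libraries, and passed in no comparison. DAG1, which encodes dystroglycan, a Slit-binding protein, was at 11.6 ± 2.16, 24.3 ± 1.56 and 17.3 ± 5.19 FPKM. SDC1, another syndecan, was at 2.56 ± 0.968, 17.2 ± 0.911 and 7.64 ± 5.06 FPKM. This order of group means was that of UNC5B, and DAG1, SDC3 and other partners had it too. SDC1 and DAG1 were the partners that remained higher in invasive than core libraries in the 6-library limma fit with the GC trend removed, at 1.72 (adjusted p = 0.010) and 0.52 (adjusted p = 0.040). SDC3 was at 9.24 ± 1.90, 18.4 ± 2.12 and 15.8 ± 4.52 FPKM and its difference between invasive and core went from 0.93 to 0.25 with the trend removed.

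Inside the cell, the adaptors and kinases of netrin signalling (12 of 14 tested) were led in level by MAGED1, a partner of UNC5 receptors, at 32.1 ± 5.40, 60.7 ± 18.2 and 44.8 ± 13.2 FPKM, PITPNA, a lipid transfer protein, at 14.7 ± 1.32, 20.2 ± 3.12 and 17.3 ± 0.952 FPKM, and MYO10, an unconventional myosin, at 11.0 ± 0.813, 11.4 ± 0.407 and 11.0 ± 4.07 FPKM in core, invasive and MK801 libraries. DAPK1, a death kinase linked to UNC5B, averaged at most 0.0229 FPKM in any group. The Robo effectors (10 of 10 tested) were led by VASP, an actin polymerase, at 35.9 ± 6.94, 61.0 ± 18.3 and 64.2 ± 26.9 FPKM, CAP1, an actin-binding protein, at 52.8 ± 2.69, 51.1 ± 0.539 and 54.5 ± 1.84 FPKM, and the kinase ABL1 at 27.9 ± 3.78, 47.1 ± 3.57 and 37.6 ± 10.4 FPKM. The invasive minus core differences of VASP and ABL1 were 0.73 and 0.74, and 0.05 and 0.12 with the GC trend removed. That of MAGED1 went from 0.87 to 0.57. With the GC trend removed, the 4 partners that were lower in invasive than core libraries in the 6-library limma fit were NCK2, an adaptor, at -1.16 (adjusted p = 0.017), PTPN11, a phosphatase, at -0.66 (adjusted p = 0.023), TRIM9, a ubiquitin ligase that binds DCC, at -0.63 (adjusted p = 0.018), and the kinase ABL2 at -0.57 (adjusted p = 0.022).

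**Figure D4:**
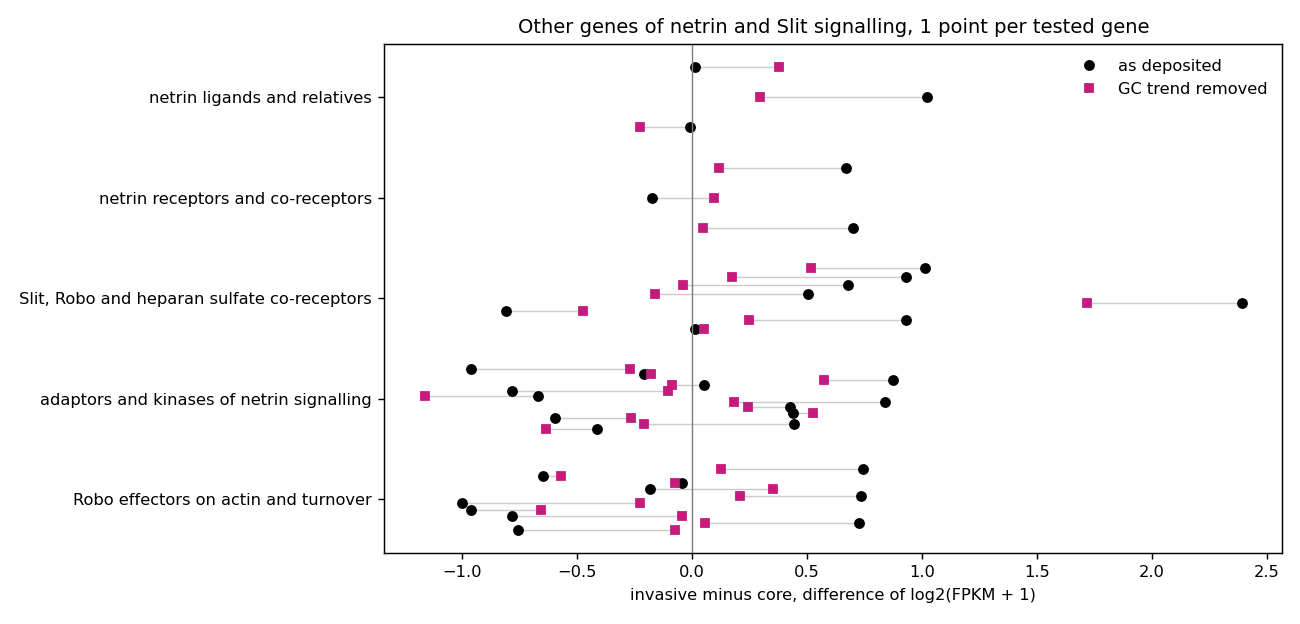
Invasive minus core difference of log2(FPKM + 1) for the 36 tested partner genes by list (1 point per gene as deposited, 1 with the GC trend removed, joined by a line). With the trend removed the median went from 0.03 to 0.0034, and SDC1 was farthest to the right both as deposited and at 1.72 with the trend removed.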

How the data were processed

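RNA-seq of poly-A selected libraries gave 3 core, 3 invasive and 3 MK801 libraries, mapped to columns by the column names in the labels. The values deposited by the authors are FPKM per gene, with the gene length used. Per the submitters' processing notes, the tools were featureCounts 1.5.0-p3 and HISAT2 2.0.5 and the build GRCh38; whether strand was used is not given in the sources used here. All gene identifiers matched GENCODE release 29. FPKM times gene length gave whole multiples of 1 step per library (tolerance 0.01 fragments), from which fragments were recovered. The authors divided by 0.769 to 1.23 times the recovered gene total. Scaling to that total, as limma-voom did, moved the median log2 difference of all tested genes from -0.02 to -0.36 in invasive versus core, from 0.005 to -0.252 in MK801 versus core and from -0.002 to 0.06 in MK801 versus invasive.

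Genes at 1 FPKM or more in at least 3 libraries (11845) were tested as log2(FPKM + 1) with limma 3.58.1 in R 4.3.3, 1 mean per group over 9 libraries, a mean-variance trend and Benjamini-Hochberg adjustment, after a check on simulated data. With 3 libraries a group, the smallest p of an exact permutation test is 0.1. GC content came from GENCODE transcripts (known for 99.97% of tested genes), and its loess trend (span 0.3) was removed per library. Members and lists were chosen with earlier results of these data known, and 1 list is not reported here. All members were named, with the 3 most correlated genes for each fitted member, and of each partner list the 3 most abundant genes. Other partners that are named were chosen after their values were seen. Promoters came from RefSeq (8 of 10 members matched). Intervals for counts of 0 use 3 fragments and cover counting error only.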

Additional observations from a re-analysis of the deposited data

How the results depend on the processing

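UNC5B was higher in invasive than core libraries under all 24 alternatives run (1.45 to 2.51) and lower in MK801 than invasive libraries under all 24 (-1.53 to -0.85). SLIT2 was likewise under the 23 in which it was tested (0.92 to 1.86, and -1.90 to -1.05). Several alternatives could not change these differences, so their sign was fixed in advance. They are the other filters, the replicate block, the fit of the groups compared alone, and leaving out a library of the group not compared. The members were also chosen with earlier results known, so these counts carry no support. The SLIT2 difference between MK801 and core changed sign with quantile normalization (0.205), with the GC trend removed, in all 9 libraries, in the 6 compared or with the replicate block (0.205 each), with genes detected as a covariate (0.143), and without MK801 replicate 1 (0.102, also without invasive replicate 2), core replicate 1 (0.122) or core replicate 3 (0.0163), and was -0.275 without core replicate 2. That of NEO1 did with limma-voom (-0.0916) and without MK801 replicate 2 (-0.0254), with 0.338 without MK801 replicate 3, and ROBO1 in invasive versus core did with genes detected as a covariate (0.269). The cause was not tested. Limma on 9 libraries called 0 genes in each comparison. In invasive versus core it called 6 genes after quantile normalization, 4 with genes detected as a covariate, 6179 in the 6 libraries alone and 2035 there with the GC trend removed, 0 to 4888 without any 1 library (4675 without MK801 replicate 1, 4888 without replicate 3, each with UNC5B and SLIT2 among them), and 14 without the 2 libraries with the fewest genes detected, an alternative chosen after seeing the data. In MK801 versus core it called 0 to 5941 without any 1 library, 5941 being without MK801 replicate 3, with UNC5B and ROBO1 among them. In MK801 versus invasive it called 1 with a filter of 5 FPKM, 73 with the GC trend removed, 4 with that in the 6 libraries, 323 with genes detected as a covariate (UNC5B and SLIT2 among them), and 0 to 42 without any 1 library (42 without MK801 replicate 1). Same-numbered libraries of different groups deviated together with correlations from -0.15 to 0.608, so the numbers are not shown to pair them. Same-numbered core and invasive columns share a code, which may mark 1 device, but the labels do not say so. With the replicate block limma called 2525 genes in invasive versus core, with UNC5B and SLIT2 among them, and in the 6 libraries compared alone with the block 7134 (UNC5B, SLIT2 and NEO1 among them), 113 in MK801 versus core and 1 in MK801 versus invasive. With the block and the GC trend removed, chosen after seeing the data, 0 were called in invasive versus core and 48, UNC5B among them but not SLIT2, in MK801 versus invasive. SLIT2 could not be fitted under the filter of 5 FPKM.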

Other observations

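Genes that overlap the members on the genome numbered 28 in the deposited table, 18 of them on the opposite strand, and all stayed at or under 1.09 FPKM in every library. The highest was MIR218-2, which lies within SLIT3, at 1.09 FPKM in invasive replicate 1, 0.559 in MK801 replicate 3 and 0 elsewhere. MIR218-1, which lies within SLIT2, was at 0 in all libraries. Poly-A libraries do not measure mature microRNAs.

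DRAXIN, a secreted protein that binds netrin-1 and DCC, was at 0.156 ± 0.0565 FPKM (core), 1.45 ± 0.786 FPKM (invasive) and 0.334 ± 0.124 FPKM (MK801; SD, n = 3). It was not tested because too few libraries reached 1 FPKM, and it was noticed after its values were seen.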
